A study of Mus musculus with 14 samples.

Results

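Members of 9 families of synaptic adhesion molecules were followed in sorted cells of the embryonic mouse neocortex: neurexins, neuroligins, Lrrtm, Slitrk, Lrfn, contactin, contactin-associated, netrin-G and Flrt genes. Members were picked by gene symbol (Nrxn2 and Nrxn3, Nlgn1 to Nlgn3, Lrrtm1 to Lrrtm4, Slitrk1 to Slitrk6, Lrfn1 to Lrfn5, Cntn1 to Cntn5, every symbol that begins with Cntnap, Ntng1 and Ntng2, Flrt1 and Flrt2). The choice was made with earlier results of these data known, so counts of members are not independent of these data. The rule found 33 of the 18193 symbols measured, each read from its probe set of highest mean level across the 14 arrays. Of these, 25 lay above a log2 level of 4, taken here as the dim level, on at least 3 arrays and were tested; 8 did not and were not tested.

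The cells came from CD1 embryos injected at E14.5 with 1 of 2 plasmids, Fezf2GFP or CtrlGFP, which were driven by electric pulses into the progenitors that line the ventricle. CtrlGFP served as the control vector, and every group therefore carried a GFP construct and had been electroporated. GFP-positive cells were collected by fluorescence-activated sorting 48 h or 24 h later, and the promoter that drives the vectors was not given in the sources used here. At 48 h there were 4 arrays with Fezf2GFP and 4 with CtrlGFP, and at 24 h there were 3 with Fezf2GFP and 3 with CtrlGFP. The study asked which genes Fezf2, a transcription factor that specifies corticofugal projection neurons, changes in progenitors that would mostly give callosal neurons.

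Synaptic adhesion molecules sit on the facing membranes of axon and target cell. Neurexins and contactin-associated proteins are related cell-surface proteins of the axon, while neuroligins, Lrrtm, Slitrk, Lrfn and Flrt proteins are best known on the receiving side, where they bind neurexins, receptor phosphatases of the LAR type or latrophilins. Many of these genes are also active before synapses form, when migrating neurons and growing axons use them for guidance and fasciculation.

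The deposited values are log2 intensities from Affymetrix arrays, processed by the authors with GCRMA, and all values below are on that scale unless a fold is named. Array medians over all probe sets ran from 3.26 to 3.50, and arrays of the same group correlated at 0.942 to 0.993 across the 10295 genes tested. CtrlGFP 24 h replicate 1 and CtrlGFP 48 h replicate 2 stood apart from the other arrays, with the highest medians. Fezf2, read from its only probe set, went against the label. It averaged 9.33 ± 0.70 with Fezf2GFP and 10.15 ± 0.48 with CtrlGFP at 48 h (SD, n = 4 each), and 9.44 ± 0.11 with Fezf2GFP and 11.30 ± 0.42 with CtrlGFP at 24 h (SD, n = 3 each). Its log2 fold change of -1.86 (SE 0.38) passed the test at 24 h (adjusted p = 0.0324, limma; 0.141 and 0.121 without CtrlGFP 24 h replicate 2 or 3, 0.163, 0.0963 and 0.0959 without Fezf2GFP 24 h replicate 1, 2 or 3, and 0.0883 when dim probe sets were kept), while that of -0.82 (SE 0.33) at 48 h did not (adjusted p = 0.239). The sources used here do not say where the probe set lies relative to the sequence in the vector, so it does not check delivery, and Fezf2GFP below means the arrays labelled so. The labels do not say whether replicate arrays stem from different litters or embryos, so each p-value rests on the spread between these samples alone, which may be technical.

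At 48 h, 7 of the 25 tested members were higher with Fezf2GFP than with CtrlGFP at an adjusted p under 0.05 in limma's test, and 0 were lower. The 7 were Lrrtm2, Lrrtm4, Cntn3, Cntnap2, Cntnap4, Cntnap5a and Flrt2, and they fell in 4 of the 9 families. Folds lay between 1.78 and 3.91, leaving out Cntnap5a, which was dim on all CtrlGFP arrays. For Cntn3 and Cntnap4 only 2 of the 4 CtrlGFP 48 h arrays were above the dim level. The count depends on the rule, which leaves out Flrt3 and Cntn6. These also passed at 48 h, Flrt3 lower and Cntn6 higher with Fezf2GFP, and are given below with the partners. Over all 10295 genes tested, 3.13% passed at 48 h, 2.7% higher and 0.427% lower, or 278 and 44 genes; after centring each array on its median, 181 were higher and 61 lower. The log2 fold change was positive for 21 of the 25 and negative for 4, and its median over them was 0.72, against 0.06 over all genes tested. In 9 of the 25 every Fezf2GFP array lay above every CtrlGFP array and in 0 below, where 9.07% of all genes tested had arrays that did not overlap in either direction. Cntnap5a passed the filter on dim probe sets only through the Fezf2GFP 48 h arrays, so it had to differ there; of the other 24 members, 6 were higher and 0 lower, with a median of 0.72. With no filter and all 33 members, 5 were higher, where 1.35% of all 18193 genes passed, 209 higher and 37 lower. The median was then 0.44, against -0.02 over all genes.

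At 24 h only Flrt2 passed between the vectors, higher with Fezf2GFP, where 1.06% of all genes tested passed, 0.806% higher and 0.253% lower. Log2 fold changes were positive for 18 of the 25 members and negative for 7, with a median of 0.31, against 0.06 over all genes tested. The arrays did not overlap for 8 members, 7 higher and 1 lower with Fezf2GFP, where 19.6% of all genes tested had arrays that did not overlap. Of the 25 members, 16 had a positive log2 fold change at both times, 2 a negative one at both and 7 changed sign. These signs are those of the probe set used. Another probe set above the dim level on at least 3 arrays had the opposite sign for some members. These were Lrrtm3 at 24 h (-0.06), Slitrk4 at 48 h (-0.12) and 24 h (-0.18), Ntng1 at 48 h (0.17) and Cntn2 at 48 h (0.05). For Nrxn3, Cntn1, Cntnap2, Flrt1 and Flrt2 such probe sets had the same signs. A test of the difference between the 48 h effect and the 24 h effect of the vector called 0 members. Of all genes tested 0.0971% passed it, 0.068% with a positive and 0.0291% with a negative difference. No member's effect was thus shown to differ between the times. With array weights, whose estimation stopped before convergence, 10 members and 2030 of all genes passed at 24 h, against 109 genes without weights, and 5 members and 240 genes passed the test of the difference, against 10 genes without weights.

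**Figure D1:**
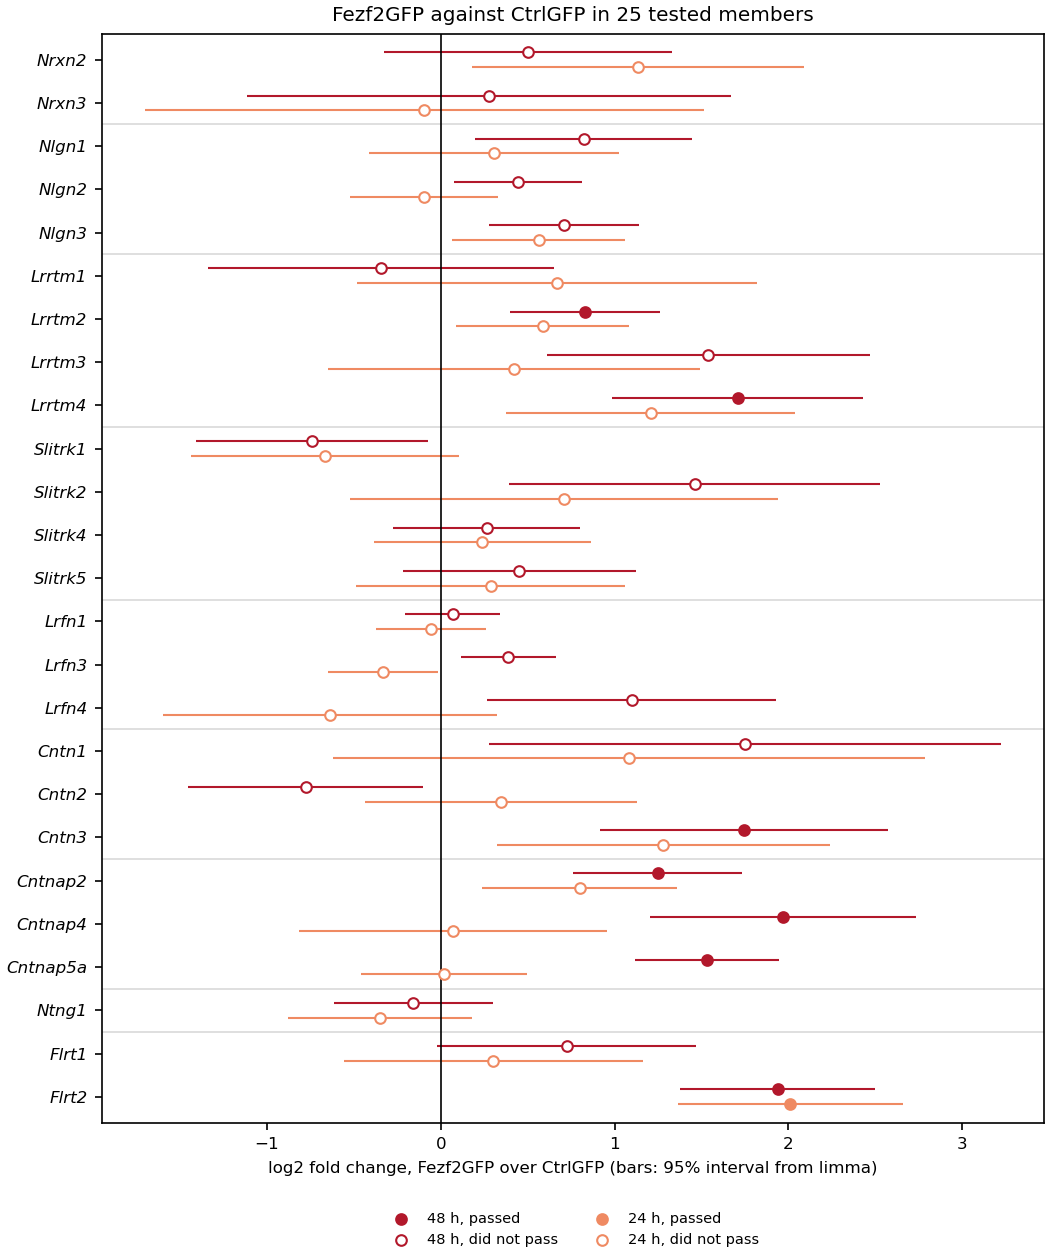
Log2 fold change of Fezf2GFP over CtrlGFP (horizontal axis) for each of the 25 tested members (vertical axis), at 48 h above 24 h within a member; points are fitted values, bars are 95% limma intervals and filled points passed. At 48 h, 21 of the 25 points lie right of 0 and 7 are filled; at 24 h, 18 lie right of 0 and Flrt2 alone is filled.

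The promoters of Flrt2, Lrrtm4 and Cntnap2 are printed because these 3 members passed at 48 h and had arrays that did not overlap between the vectors at both times, on probe sets above the dim level on all 14 arrays. Each runs 5′ to 3′ on the gene's strand from 250 bases before to 50 bases after a transcription start in RefSeq, build GRCm38.p6. That start lies 220 bases from the gene start in the RefSeq gene table for Flrt2, 19 bases for Lrrtm4 and 0 bases for Cntnap2. The capitals mark E-boxes, CANNTG, searched on both strands, which read alike since the motif is its own reverse complement. E-boxes are the sequences that basic helix-loop-helix proteins, such as the neurogenins of cortical progenitors, recognise. The Flrt2 promoter lies at chr12:95691976-95692275 on the plus strand, the Lrrtm4 promoter at chr6:80018627-80018926 on the plus strand and the Cntnap2 promoter at chr6:45059811-45060110 on the plus strand.
Flrt2: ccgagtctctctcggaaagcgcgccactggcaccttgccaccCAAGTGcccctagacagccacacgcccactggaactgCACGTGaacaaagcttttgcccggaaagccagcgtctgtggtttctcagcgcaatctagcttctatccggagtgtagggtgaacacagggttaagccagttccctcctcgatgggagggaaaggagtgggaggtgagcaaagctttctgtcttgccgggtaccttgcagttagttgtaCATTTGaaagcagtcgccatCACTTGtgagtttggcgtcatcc
Lrrtm4: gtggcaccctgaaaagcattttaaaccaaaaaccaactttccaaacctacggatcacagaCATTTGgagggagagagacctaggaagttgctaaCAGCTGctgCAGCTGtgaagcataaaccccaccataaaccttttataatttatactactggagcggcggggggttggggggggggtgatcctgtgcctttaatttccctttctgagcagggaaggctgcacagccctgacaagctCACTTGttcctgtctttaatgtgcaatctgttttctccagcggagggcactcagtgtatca
Cntnap2: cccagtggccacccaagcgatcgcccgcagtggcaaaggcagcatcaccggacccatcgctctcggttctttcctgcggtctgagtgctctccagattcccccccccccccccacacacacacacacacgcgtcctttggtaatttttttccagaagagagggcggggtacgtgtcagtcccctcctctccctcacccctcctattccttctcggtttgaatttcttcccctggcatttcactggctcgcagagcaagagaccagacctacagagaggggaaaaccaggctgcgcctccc
The Flrt2 window holds 4 E-boxes and 14 CpG pairs, the Lrrtm4 window 4 E-boxes and 4 CpG pairs, and the Cntnap2 window 0 E-boxes and 14 CpG pairs. Among the 17 tested members with a promoter in the table, 11 (64.7%) had an E-box, against 72.1% of the 27025 promoters of the same length, and a match is a description of the letters, not a bound site.

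Neurexins are presynaptic receptors for neuroligins and Lrrtm proteins. Both measured members, Nrxn2 and Nrxn3, were tested, and neither passed between the vectors. Nrxn2 measured 6.93, 8.63, 8.46 and 7.59 with Fezf2GFP and 7.30, 7.23, 8.01 and 7.07 with CtrlGFP at 48 h, and 7.17, 7.05 and 5.95 with Fezf2GFP and 5.98, 5.39 and 5.39 with CtrlGFP at 24 h. The vectors overlapped at both times, with log2 fold changes of 0.50 (SE 0.38, adjusted p = 0.607) at 48 h and 1.13 (SE 0.44, adjusted p = 0.415) at 24 h. Between the times it rose with CtrlGFP, where every 48 h array lay above every 24 h array (log2 fold change 1.81, SE 0.41, adjusted p = 0.0111); a mean over all probe sets of the gene gave 0.89. With Fezf2GFP the change over time was 1.18 (SE 0.41) and did not pass (adjusted p = 0.0875). Nrxn3 averaged 8.70 ± 0.44 with Fezf2GFP and 8.42 ± 1.11 with CtrlGFP at 48 h (SD, n = 4 each), and 7.67 ± 1.37 with Fezf2GFP and 7.77 ± 1.11 with CtrlGFP at 24 h (SD, n = 3 each), a spread wider than its differences between vectors of 0.28 and -0.09.

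Neuroligins are the postsynaptic partners of neurexins, Nlgn2 at inhibitory synapses and Nlgn1 mainly at excitatory ones. All 3 were tested, and none passed between the vectors, while Nlgn2 and Nlgn3 rose over time. Nlgn3 measured 10.68, 10.11, 10.41 and 10.30 with Fezf2GFP and 10.01, 9.40, 9.59 and 9.66 with CtrlGFP at 48 h, and 9.50, 9.23 and 8.69 with Fezf2GFP and 8.76, 8.48 and 8.49 with CtrlGFP at 24 h. The vectors did not overlap at 48 h, yet the log2 fold change of 0.71 (SE 0.20) did not pass (adjusted p = 0.0799), nor did that of 0.56 (SE 0.23) at 24 h (adjusted p = 0.46). All 48 h arrays lay above all 24 h arrays with either vector, by 1.24 with Fezf2GFP (SE 0.22, adjusted p = 0.00274) and 1.09 with CtrlGFP (SE 0.22, adjusted p = 0.00482). A mean over the 3 probe sets of Nlgn3, of which the other 2 were dim, gave 0.40 with Fezf2GFP and 0.28 with CtrlGFP, and the second no longer passed (adjusted p = 0.154).

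Nlgn2 measured 11.55, 11.93, 11.93 and 11.50 with Fezf2GFP and 11.16, 11.60, 11.20 and 11.17 with CtrlGFP at 48 h, and 11.14, 10.85 and 10.75 with Fezf2GFP and 11.26, 10.94 and 10.82 with CtrlGFP at 24 h. With Fezf2GFP it rose over time with no overlap (log2 fold change 0.82, SE 0.18, adjusted p = 0.0113), a call that ended without Fezf2GFP 24 h replicate 2 (adjusted p = 0.0552) or replicate 3 (0.0674), and a mean over its probe sets gave 0.41. With CtrlGFP its change over time was 0.28 (SE 0.18, adjusted p = 0.416). The difference between the vectors was 0.44 (SE 0.17, adjusted p = 0.215) at 48 h and -0.09 (SE 0.20, adjusted p = 0.886) at 24 h. Nlgn1 averaged 7.70 ± 0.49 with Fezf2GFP and 6.88 ± 0.46 with CtrlGFP at 48 h (SD, n = 4 each), and 7.56 ± 0.37 with Fezf2GFP and 7.25 ± 0.36 with CtrlGFP at 24 h (SD, n = 3 each). Its log2 fold change of 0.82 (SE 0.29) at 48 h did not pass (adjusted p = 0.171).

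Lrrtm proteins are leucine-rich repeat proteins of excitatory synapses: Lrrtm1 and Lrrtm2 bind neurexins, and Lrrtm4 binds heparan sulfate proteoglycans such as glypicans. All 4 were tested; Lrrtm2 and Lrrtm4 were higher with Fezf2GFP at 48 h, and 0 of the 4 passed between the vectors at 24 h. Lrrtm4 measured 10.69, 10.86, 10.66 and 11.66 with Fezf2GFP and 9.79, 8.58, 9.41 and 9.26 with CtrlGFP at 48 h, and 9.31, 9.54 and 9.35 with Fezf2GFP and 7.38, 8.32 and 8.89 with CtrlGFP at 24 h. Every Fezf2GFP array lay above every CtrlGFP array at each time. The log2 fold change at 48 h was 1.71 (SE 0.33, adjusted p = 0.0151), or 3.27-fold, and passed under 25 of 25 alternative settings, although a mean over its probe sets lowered it to 1.13. At 24 h it was 1.21 (SE 0.39) and did not pass (adjusted p = 0.237). Over time Lrrtm4 rose by 1.57 with Fezf2GFP (SE 0.36, adjusted p = 0.0129; 0.0544 without Fezf2GFP 24 h replicate 3), while its change of 1.07 with CtrlGFP (SE 0.36) did not pass (adjusted p = 0.0739).

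Lrrtm2 measured 8.95, 8.38, 8.76 and 9.22 with Fezf2GFP and 8.46, 7.69, 7.85 and 7.98 with CtrlGFP at 48 h, and 7.84, 7.98 and 7.98 with Fezf2GFP and 7.19, 7.43 and 7.42 with CtrlGFP at 24 h. The vectors overlapped at 48 h through CtrlGFP replicate 1 and were apart at 24 h. The 48 h log2 fold change of 0.83 (SE 0.20, adjusted p = 0.0418), or 1.78-fold, stood close to the threshold and passed under 6 of 25 alternatives. It ended without CtrlGFP 48 h replicate 2 (adjusted p = 0.0962), 3 (0.105) or 4 (0.103), without Fezf2GFP 48 h replicate 1 (0.0826), 3 (0.0734) or 4 (0.119), without CtrlGFP 24 h replicate 2 (0.0648) or 3 (0.06), and without Fezf2GFP 24 h replicate 1 (0.0547), 2 (0.0663) or 3 (0.0596). It also ended with no filter (0.0601), median centring (0.0609), a trended robust prior (0.053) and the 48 h arrays fitted alone (0.159). A mean over its probe sets, of which the other 2 were dim, gave 0.17 (0.554), and array weights gave 0.54 (0.119). At 24 h the log2 fold change was 0.59 (SE 0.23, adjusted p = 0.42). Over time it rose with Fezf2GFP by 0.89 (SE 0.22, adjusted p = 0.0161), which a mean over probe sets put at 0.36 (adjusted p = 0.0781), and which ended without Fezf2GFP 24 h replicate 1 (adjusted p = 0.0583), 2 (0.0559) or 3 (0.0556).

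Lrrtm3 measured 6.80, 6.64, 7.10 and 7.87 with Fezf2GFP and 6.34, 5.22, 5.77 and 4.92 with CtrlGFP at 48 h, and 5.20, 4.09 and 4.18 with Fezf2GFP and 5.05, 3.91 and 3.24 with CtrlGFP at 24 h. At 48 h the vectors did not overlap, but the log2 fold change of 1.54 (SE 0.43) did not pass (adjusted p = 0.0772). It rose over time with Fezf2GFP by 2.61 (SE 0.46, adjusted p = 0.00304), or 6.12-fold, with a mean over probe sets of 1.72, while the change of 1.50 with CtrlGFP (SE 0.46) did not pass (adjusted p = 0.0519). Lrrtm1 averaged 8.54 ± 0.31 with Fezf2GFP and 8.89 ± 0.92 with CtrlGFP at 48 h (SD, n = 4 each), and 8.04 ± 0.64 with Fezf2GFP and 7.37 ± 0.89 with CtrlGFP at 24 h (SD, n = 3 each). Its difference between the vectors was -0.34 (SE 0.46) at 48 h and 0.67 (SE 0.53) at 24 h, neither of which passed.

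Slitrk proteins bind the LAR-type receptor phosphatases encoded by Ptprd and Ptprs, and only 4 of the 6, Slitrk1, Slitrk2, Slitrk4 and Slitrk5, were bright enough to test. None passed in any of the 5 comparisons. Slitrk2 averaged 9.07 ± 0.68 with Fezf2GFP and 7.61 ± 1.22 with CtrlGFP at 48 h (SD, n = 4 each), and 9.65 ± 0.18 with Fezf2GFP and 8.94 ± 0.21 with CtrlGFP at 24 h (SD, n = 3 each). Its log2 fold change of 1.46 (SE 0.49) at 48 h did not pass (adjusted p = 0.151), and CtrlGFP replicate 2, at 5.78, lay far below the other CtrlGFP arrays. Slitrk1, a gene of neurite outgrowth, had a negative log2 fold change at both times, -0.74 (SE 0.31, adjusted p = 0.262) at 48 h and -0.66 (SE 0.36, adjusted p = 0.662) at 24 h, with means of 9.07 with Fezf2GFP and 9.81 with CtrlGFP at 48 h and of 9.05 with Fezf2GFP and 9.72 with CtrlGFP at 24 h. The 95% interval at 48 h ran from -1.41 to -0.07. Slitrk4 and Slitrk5 averaged 5.54 and 7.08 with Fezf2GFP and 5.27 and 6.63 with CtrlGFP at 48 h, and 5.48 and 6.64 with Fezf2GFP and 5.24 and 6.35 with CtrlGFP at 24 h. Their differences between the vectors were 0.26 and 0.45 at 48 h and 0.24 and 0.29 at 24 h, and none passed.

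Lrfn proteins, also called SALMs, are postsynaptic leucine-rich repeat proteins; Lrfn1, Lrfn2 and Lrfn4 bind the scaffold encoded by Dlg4, and Lrfn3 lacks that binding motif. Of the 5, Lrfn1, Lrfn3 and Lrfn4 were tested, and none passed between the vectors. Lrfn3 measured 7.27, 7.46, 7.48 and 7.40 with Fezf2GFP and 7.01, 7.02, 7.03 and 7.01 with CtrlGFP at 48 h, and 6.92, 6.68 and 6.44 with Fezf2GFP and 7.05, 7.02 and 6.96 with CtrlGFP at 24 h. All Fezf2GFP arrays lay above all CtrlGFP arrays at 48 h and below them at 24 h. The log2 fold changes of 0.39 (SE 0.13, adjusted p = 0.139) at 48 h and -0.33 (SE 0.15, adjusted p = 0.518) at 24 h did not pass, and their difference of 0.72 (SE 0.19) had an adjusted p of 0.442. Over time Lrfn3 rose with Fezf2GFP by 0.72 (SE 0.14, adjusted p = 0.00432), or 1.65-fold, while with CtrlGFP the change was 0.00 with a 95% interval of -0.29 to 0.30.

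Lrfn4 measured 8.17, 7.28, 7.50 and 7.66 with Fezf2GFP and 6.31, 7.44, 6.56 and 5.91 with CtrlGFP at 48 h, and 6.45, 5.97 and 6.0 with Fezf2GFP and 7.83, 6.40 and 6.10 with CtrlGFP at 24 h. The vectors overlapped at both times, with log2 fold changes of 1.10 (SE 0.38, adjusted p = 0.171) at 48 h and -0.64 (SE 0.44, adjusted p = 0.711) at 24 h. Over time it rose with Fezf2GFP by 1.51 (SE 0.42, adjusted p = 0.0312), with no overlap between the times. That call ended without Fezf2GFP 24 h replicate 2 (adjusted p = 0.118) or 3 (0.117), and without Fezf2GFP 48 h replicate 1 (0.0805), 3 (0.0573) or 4 (0.0518), as it did when dim probe sets were kept (0.0752). With CtrlGFP the change was -0.22 (SE 0.42, adjusted p = 0.827). Lrfn1 averaged 5.68 ± 0.18 with Fezf2GFP and 5.61 ± 0.10 with CtrlGFP at 48 h (SD, n = 4 each), and 5.47 ± 0.04 with Fezf2GFP and 5.53 ± 0.09 with CtrlGFP at 24 h (SD, n = 3 each), with 95% intervals for the difference of -0.21 to 0.34 at 48 h and -0.37 to 0.26 at 24 h.

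**Figure D2:**
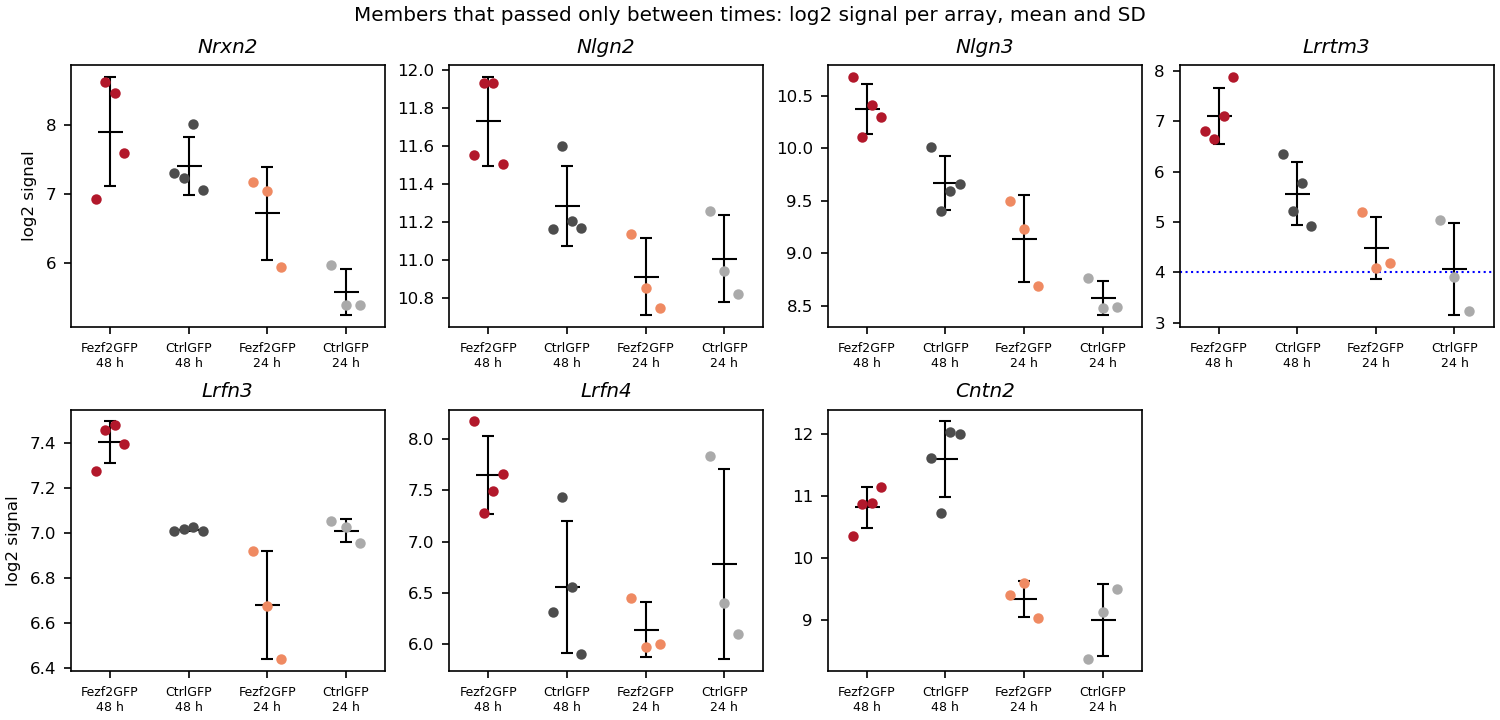
Log2 level (vertical axis) of Nrxn2, Nlgn2, Nlgn3, Lrrtm3, Lrfn3, Lrfn4 and Cntn2, the 7 members that passed between times only; dots are arrays of each group (horizontal axis), bars are means, whiskers are SD and the dotted line, in panels that reach it, is the dim level of 4 (each panel has its own scale). Lrfn3 sits between 7.27 and 7.48 on the Fezf2GFP 48 h arrays, above every other array, and Cntn2 is higher at 48 h than at 24 h with either vector.

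Contactins are GPI-anchored immunoglobulin-family proteins of axons. Cntn2, known as TAG-1, marks outgrowing corticofugal axons and pairs with Cntnap2 along myelinated axons; Cntn1 pairs with Cntnap1 at the paranode. Of the 5 contactins, Cntn1, Cntn2 and Cntn3 were tested, and Cntn3 was higher with Fezf2GFP at 48 h. Cntn3 measured 5.41, 6.71, 5.45 and 6.63 with Fezf2GFP and 5.33, 3.43, 4.46 and 4.0 with CtrlGFP at 48 h, and 6.46, 6.38 and 6.53 with Fezf2GFP and 5.16, 5.0 and 5.37 with CtrlGFP at 24 h. The vectors did not overlap at either time, though at 48 h the lowest Fezf2GFP array and the highest CtrlGFP array lay close together. The log2 fold change at 48 h was 1.75 (SE 0.38, adjusted p = 0.0263), or 3.35-fold, with 2 of the 4 CtrlGFP arrays above the dim level. At 24 h it was 1.28 (SE 0.44) and did not pass (adjusted p = 0.308).

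The Cntn3 call held under 15 of 25 alternatives, and the type of its probe set (_x_at) is one that may also pick up similar transcripts. It ended without CtrlGFP 48 h replicate 2 (adjusted p = 0.0625), 3 (0.0584) or 4 (0.0869) and without Fezf2GFP 48 h replicate 2 (0.0772) or 4 (0.0857), and also with no filter on dim probe sets (0.0653) or with the 48 h arrays fitted alone (0.129), and a mean over its probe sets gave 0.86. Over time Cntn3 did not pass with either vector; its log2 fold change was -0.41 (SE 0.41, adjusted p = 0.628) with Fezf2GFP and -0.87 (SE 0.41, adjusted p = 0.223) with CtrlGFP.

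Cntn2 rose over time with both vectors. It measured 10.35, 10.88, 10.88 and 11.15 with Fezf2GFP and 11.62, 10.72, 12.03 and 12 with CtrlGFP at 48 h, and 9.40, 9.61 and 9.03 with Fezf2GFP and 8.37, 9.13 and 9.50 with CtrlGFP at 24 h. The rise was 1.47 with Fezf2GFP (SE 0.34, adjusted p = 0.0129; 0.0732 without Fezf2GFP 24 h replicate 3) and 2.59 with CtrlGFP (SE 0.34, adjusted p = 0.00043), or 6.02-fold, and its other 2 bright probe sets rose with both vectors as well, by 1.22 to 2.61 and by 2.20 to 2.62. Between the vectors it had a negative log2 fold change at 48 h, -0.78 (SE 0.31, adjusted p = 0.242), and a positive one at 24 h, 0.35 (SE 0.36, adjusted p = 0.771). Its other 2 bright probe sets did not share a sign at 48 h, with -0.91 and 0.05, and each gave 0.06 at 24 h. On the probe set used, the difference between the 48 h and 24 h effects, -1.12 (SE 0.48), did not pass (adjusted p = 0.976).

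Cntn1 varied widely at 48 h, with a mean of 7.0 ± 1.43 with Fezf2GFP and 5.25 ± 1.34 with CtrlGFP (SD, n = 4 each), and the log2 fold change of 1.75 (SE 0.68) did not pass (adjusted p = 0.223). At 24 h it averaged 4.88 ± 0.29 with Fezf2GFP and 3.80 ± 0.13 with CtrlGFP (SD, n = 3 each). All CtrlGFP 24 h arrays were below the dim level, so the difference is at least 1.84-fold, and it did not pass (adjusted p = 0.711).

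Contactin-associated proteins are neurexin relatives on the axon surface. Cntnap2 organises potassium channels beside the node of Ranvier and is expressed in cortical projection neurons before birth, and Cntnap4 is known from interneurons. Of the 4 members measured 3 were tested: Cntnap2 and Cntnap4 were higher with Fezf2GFP at 48 h, and Cntnap5a was tested only because it was bright in that group. None of the 3 passed at 24 h. Cntnap2 measured 11.96, 12.23, 12.18 and 12.16 with Fezf2GFP and 11.21, 10.89, 11.16 and 10.27 with CtrlGFP at 48 h, and 11.17, 11.25 and 11.35 with Fezf2GFP and 9.94, 10.66 and 10.77 with CtrlGFP at 24 h. The vectors did not overlap at either time. Between the vectors its log2 fold change was 1.25 (SE 0.22, adjusted p = 0.00876), or 2.37-fold, at 48 h and 0.80 (SE 0.26, adjusted p = 0.246) at 24 h. Its other bright probe set gave 1.74 at 48 h. Over time Cntnap2 rose with Fezf2GFP by 0.87 (SE 0.24, adjusted p = 0.0324), and that call ended without any of Fezf2GFP 24 h replicate 1 (adjusted p = 0.0964), 2 (0.104) or 3 (0.087) or Fezf2GFP 48 h replicate 2 (0.0762), 3 (0.0715) or 4 (0.0541), as it did when dim probe sets were kept (0.0565). With CtrlGFP the change was 0.42 (SE 0.24, adjusted p = 0.326).

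Cntnap4 measured 6.26, 5.35, 5.70 and 7.06 with Fezf2GFP and 5.01, 4.01, 3.97 and 3.50 with CtrlGFP at 48 h, and 3.99, 3.71 and 4.0 with Fezf2GFP and 4.03, 3.66 and 3.80 with CtrlGFP at 24 h. It lay well above the dim level only on the 4 Fezf2GFP 48 h arrays and on CtrlGFP 48 h replicate 1, and sat at or near that level on the rest. With Fezf2GFP at 48 h it was higher by 1.97 (SE 0.35, adjusted p = 0.00876), or 3.91-fold, with 2 of the 4 CtrlGFP arrays above the dim level; with the 48 h arrays fitted alone the adjusted p was 0.0637. At 24 h the difference was 0.07 with a 95% interval of -0.81 to 0.96. With Fezf2GFP it rose over time by 2.19 (SE 0.38, adjusted p = 0.00276), and the difference between the vector effects at the 2 times, 1.90 (SE 0.54), did not pass (adjusted p = 0.556).

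Cntnap5a, for which no role is given here, measured 4.07, 5.06, 4.27 and 4.75 with Fezf2GFP and 2.93, 3.20, 2.97 and 2.92 with CtrlGFP at 48 h, and 3.03, 2.92 and 2.92 with Fezf2GFP and 3.02, 2.90 and 2.89 with CtrlGFP at 24 h. Only the Fezf2GFP 48 h arrays were above the dim level. As a description, its level was at least 1.45-fold higher with Fezf2GFP than with CtrlGFP at 48 h, and at least 1.45-fold higher at 48 h than at 24 h with Fezf2GFP. Since it entered the test only through those 4 arrays, no p is given for either difference.

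Netrin-G proteins are GPI-anchored axonal ligands of postsynaptic Lrrc4-family proteins. Only Ntng1, the ligand of Lrrc4c, was tested, and it did not pass in any comparison. It averaged 8.18 ± 0.28 with Fezf2GFP and 8.34 ± 0.33 with CtrlGFP at 48 h (SD, n = 4 each), and 7.99 ± 0.11 with Fezf2GFP and 8.34 ± 0.39 with CtrlGFP at 24 h (SD, n = 3 each). The 95% interval of the difference between the vectors ran from -0.62 to 0.30 at 48 h and from -0.88 to 0.18 at 24 h.

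Flrt proteins bind latrophilins across the synapse and repel migrating neurons through Unc5 receptors. Flrt2 was higher with Fezf2GFP at both times, and was the 1 member that passed at both. It measured 13.08, 12.66, 13.69 and 12.86 with Fezf2GFP and 11.28, 10.89, 11.17 and 11.19 with CtrlGFP at 48 h, and 11.58, 11.47 and 11.69 with Fezf2GFP and 8.86, 10.03 and 9.81 with CtrlGFP at 24 h. The groups averaged 13.07 ± 0.44 with Fezf2GFP and 11.13 ± 0.17 with CtrlGFP at 48 h (SD, n = 4 each), and 11.58 ± 0.11 with Fezf2GFP and 9.57 ± 0.62 with CtrlGFP at 24 h (SD, n = 3 each). Every Fezf2GFP array at 24 h was already above every CtrlGFP array at 48 h.

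The log2 fold change of Flrt2 was 1.94 (SE 0.26, adjusted p = 0.00109), or 3.84-fold, at 48 h and 2.01 (SE 0.30, adjusted p = 0.00533), or 4.03-fold, at 24 h. The difference between these effects was -0.07 with a 95% interval of -0.93 to 0.78. Its other 2 probe sets, both bright, gave 1.69 to 2.07 at 48 h and 1.78 to 1.97 at 24 h. Of 25 alternatives the 48 h call held under 25 and the 24 h call under 24, ending only when the 24 h arrays were fitted alone (adjusted p = 0.0633). Over time Flrt2 also rose with either vector, by 1.49 with Fezf2GFP (SE 0.28, adjusted p = 0.00418) and by 1.56 with CtrlGFP (SE 0.28, adjusted p = 0.00272). Flrt1 averaged 8.31 ± 0.49 with Fezf2GFP and 7.59 ± 0.72 with CtrlGFP at 48 h (SD, n = 4 each), and 8.28 ± 0.25 with Fezf2GFP and 7.98 ± 0.43 with CtrlGFP at 24 h (SD, n = 3 each), and did not pass (adjusted p = 0.343 at 48 h).

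**Figure D3:**
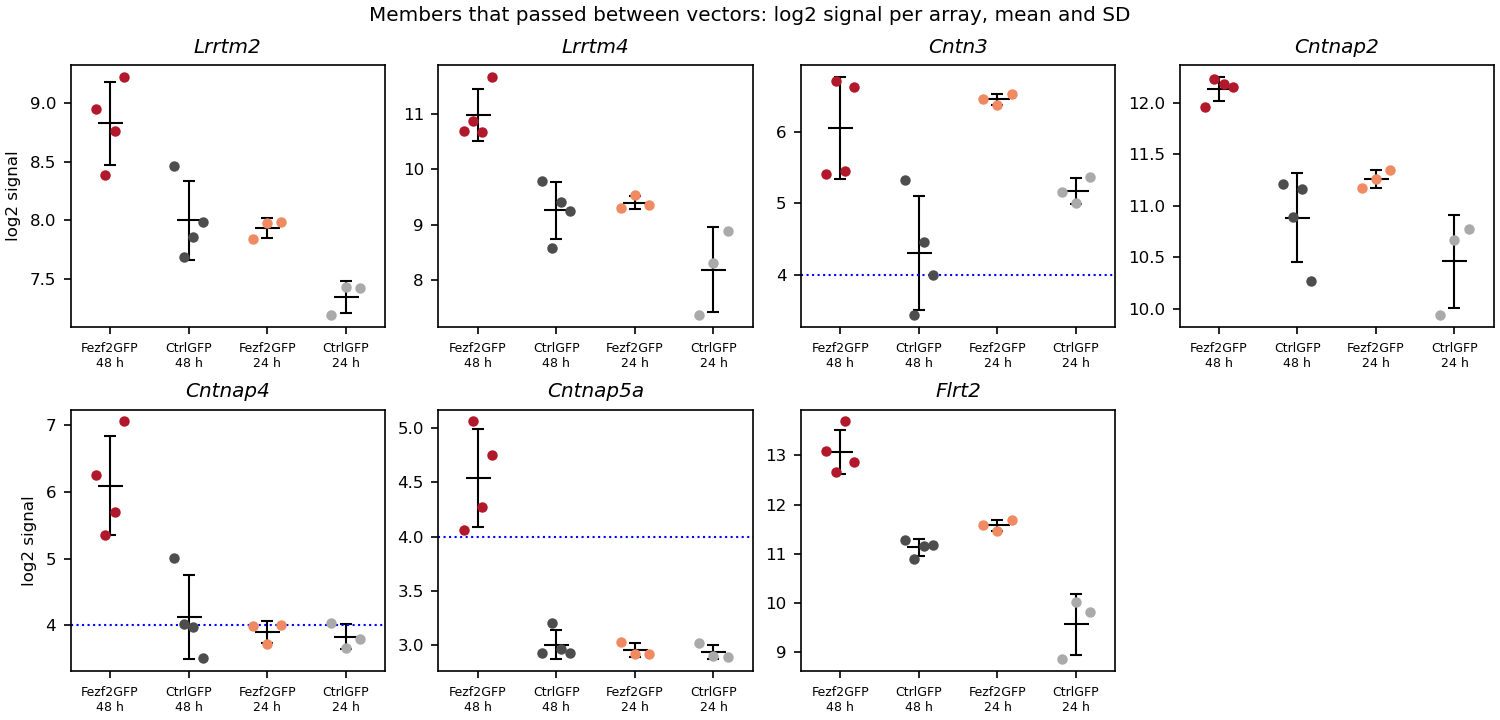
Log2 level (vertical axis) of the 7 members that were higher with Fezf2GFP than with CtrlGFP at 48 h; dots are arrays of each group (horizontal axis), bars are means, whiskers are SD and the dotted line, in panels that reach it, is the dim level of 4 (each panel has its own scale). Flrt2 is apart between the vectors at both times, Lrrtm2 overlaps at 48 h, and Cntnap5a exceeds 4 only on the 4 Fezf2GFP 48 h arrays.

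The remaining 8 members stayed dim. Slitrk3, Slitrk6, Lrfn2, Cntn4, Cntn5 and Cntnap1 lay below 4 on all 14 arrays, with group means between 2.22 and 3.05. Lrfn5 was above 4 on 1 Fezf2GFP array and 1 CtrlGFP array at 48 h, reaching 4.81 and 5.93, and Ntng2, the other netrin-G gene, on 1 CtrlGFP array at each time, reaching 4.95 at 48 h and 4.25 at 24 h. Their transcripts were not well above background, which does not show that they were absent.

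Across the members, 12 of the 25 tested rose with time in the Fezf2GFP arrays and 4 in the CtrlGFP arrays, and 0 fell in either. The 12 were Nlgn2, Nlgn3, Lrrtm2, Lrrtm3, Lrrtm4, Lrfn3, Lrfn4, Cntn2, Cntnap2, Cntnap4, Cntnap5a and Flrt2, and the 4 were Nrxn2, Nlgn3, Cntn2 and Flrt2. The rise of Cntnap5a was fixed by the filter, which it passed through the Fezf2GFP 48 h arrays alone. Of the other 24 members, 11 rose with Fezf2GFP. With no filter 10 of the 33 rose with Fezf2GFP, where 1024 of 18193 genes passed in either direction. Of all genes tested, 12.1% passed over time with Fezf2GFP, 6.38% higher and 5.67% lower at 48 h, and 12.6% passed with CtrlGFP, 5.88% higher and 6.69% lower. The median log2 fold change of 48 h over 24 h was 0.87 over the 25 members and -0.01 over all genes tested with Fezf2GFP, and 0.28 over the members and -0.02 over all genes tested with CtrlGFP. The 48 h arrays did not overlap the 24 h arrays for 14 members with Fezf2GFP, all higher at 48 h, and for 8 with CtrlGFP, 7 of them higher, where 26.2% and 22.7% of all genes tested did not overlap. These 2 changes over time were not shown to differ in any member, since their difference is the same interaction that called 0 members. Without Fezf2GFP 24 h replicate 3 the count with Fezf2GFP was 6, and that of all genes passed was 630, against 1241 with all arrays.

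**Figure D4:**
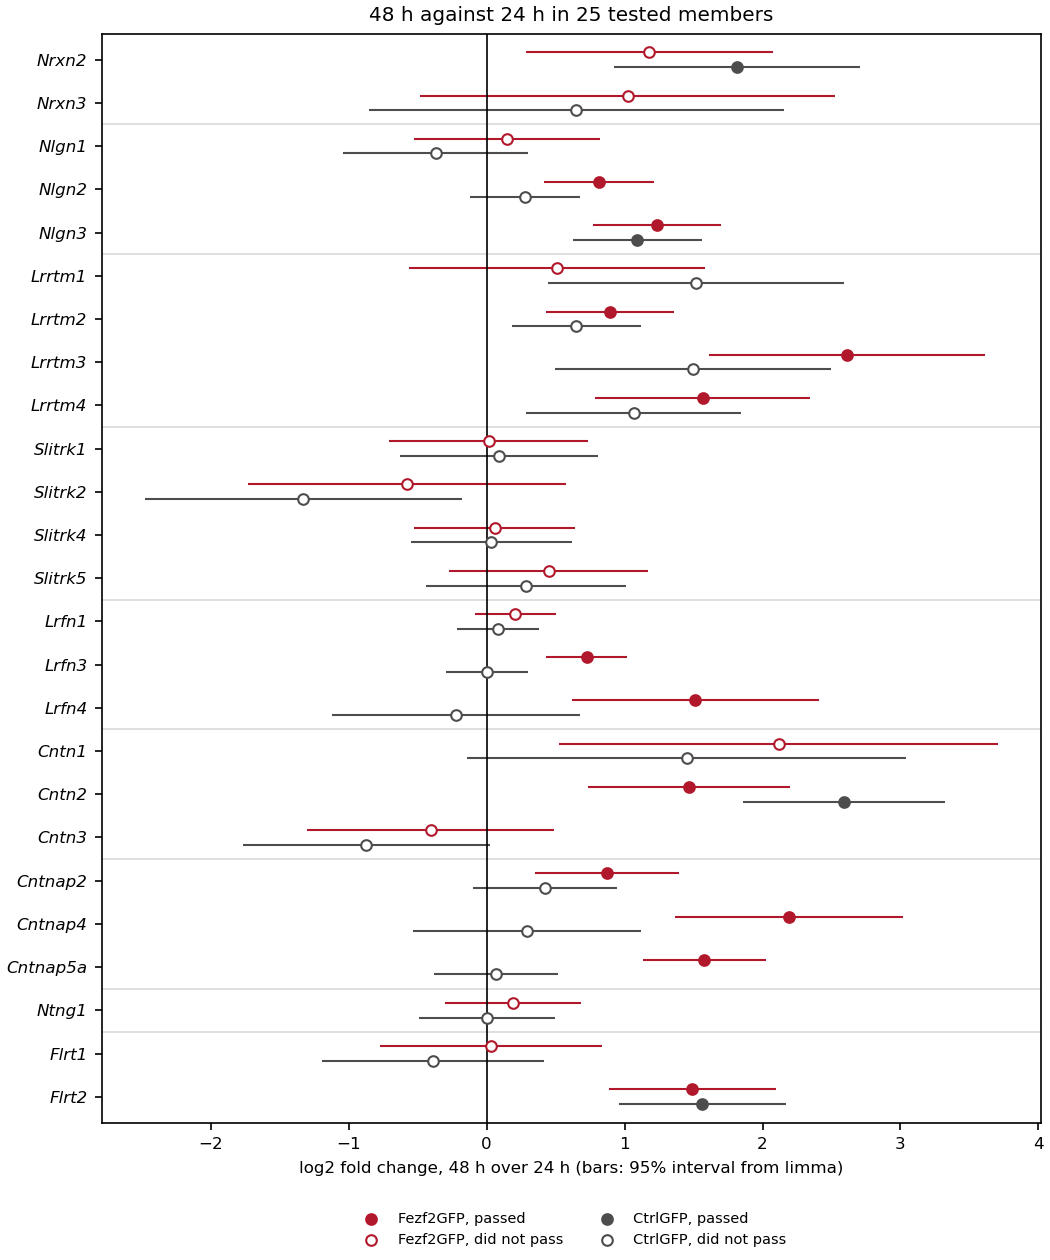
Log2 fold change of 48 h over 24 h (horizontal axis) for each of the 25 tested members (vertical axis), with Fezf2GFP above CtrlGFP within a member; points are fitted values, bars are 95% limma intervals and filled points passed. With Fezf2GFP 12 points are filled and with CtrlGFP 4, all of them right of 0.

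Partners of these proteins and other synaptic adhesion genes were counted as a list of 49 symbols, of which 41 were measured and 33 tested. At 48 h 4 were higher and 1 lower with Fezf2GFP (median log2 fold change 0.31), and at 24 h 3 were higher and 0 lower, with a median of 0.27. Of all genes tested, 2.7% were higher and 0.427% lower at 48 h, and 0.806% higher and 0.253% lower at 24 h. The median over all genes tested was 0.06 at each time. Over time 9 rose and 1 fell with Fezf2GFP, and 11 rose and 3 fell with CtrlGFP, with medians of 0.58 and 0.58. Of all genes tested, 6.38% rose and 5.67% fell with Fezf2GFP, and 5.88% rose and 6.69% fell with CtrlGFP. Flrt3, the third Flrt gene, was lower at 48 h: it averaged 7.51 ± 0.52 with Fezf2GFP and 10.62 ± 0.76 with CtrlGFP (SD, n = 4 each). Its log2 fold change of -3.11 (SE 0.36, adjusted p = 0.000459) was opposite in direction to that of Flrt2. At 24 h Flrt3 averaged 7.96 with Fezf2GFP and 9.0 with CtrlGFP, and its log2 fold change of -1.04 (SE 0.42) did not pass (adjusted p = 0.436). Unc5b, a receptor for netrin-1 and for Flrt proteins, averaged 7.34 with Fezf2GFP and 6.54 with CtrlGFP at 48 h and rose by 0.81 (SE 0.15, adjusted p = 0.00897), and a mean over its probe sets gave 0.37.

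Cntn6, a contactin, was higher with Fezf2GFP by 1.46 (SE 0.31, adjusted p = 0.0229) at 48 h and by 1.68 (SE 0.36, adjusted p = 0.044) at 24 h, though the 24 h call held under only 7 of 25 alternatives. Cadm3, an immunoglobulin-family adhesion protein of axons, was higher by 1.07 (SE 0.24, adjusted p = 0.0288) at 48 h and by 1.52 (SE 0.28, adjusted p = 0.0155) at 24 h. Clstn1, a calsyntenin that binds kinesin, was higher by 0.85 (SE 0.18, adjusted p = 0.0211) at 48 h, and Tenm1, a teneurin and so a ligand of latrophilins, by 1.50 (SE 0.29, adjusted p = 0.0224) at 24 h. Averaging all probe sets of a gene lowered the Cadm3 value at 48 h to 0.51, that of Clstn1 to 0.41, that of Cadm3 at 24 h to 1.07 and that of Tenm1 at 24 h to 0.93, and none of these calls then held. Several of these calls also ended when 1 array was left out. Adjusted p-values reached 0.0732 for Cntn6 at 48 h (without replicate 3 or 4 of either vector at 48 h) and 0.245 for Cntn6 at 24 h (without any 24 h array but Fezf2GFP replicate 2, or without any 48 h array but CtrlGFP replicate 2 or 4). They reached 0.0831 for Cadm3 at 48 h (at 48 h, without replicate 1, 3 or 4 of CtrlGFP or replicate 2 or 4 of Fezf2GFP) and 0.07 for Cadm3 at 24 h (without any CtrlGFP 24 h array). For Clstn1 they reached 0.0629 (without replicate 4 of either vector at 48 h), and for Tenm1 0.134 (without any CtrlGFP 24 h array or without Fezf2GFP 24 h replicate 1 or 3).

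Among 26 listed intracellular scaffolds, 19 were measured and 13 tested, with 1 higher and 0 lower with Fezf2GFP at 48 h and 2 higher and 0 lower at 24 h. Over time 4 rose and 0 fell with Fezf2GFP, and 3 rose and 1 fell with CtrlGFP. The shares of all genes tested given above for the partners apply to these counts too. Shank3, a postsynaptic scaffold, was higher at 48 h by 1.37 (SE 0.30, adjusted p = 0.0259), with 1 of 4 CtrlGFP arrays above the dim level. Lin7a, a partner of Cask beneath neurexins, was higher at 24 h by 1.84 (SE 0.32, adjusted p = 0.0119), and Dlg2, a relative of Dlg4, by 2.47 (SE 0.50, adjusted p = 0.0303), with 1 of 3 CtrlGFP arrays above the dim level. A mean over probe sets lowered Lin7a to 0.61 and Dlg2 to 0.73, and neither then passed. Leaving out 1 array took the adjusted p of Shank3 as high as 0.0754 (over the threshold without replicate 2, 3 or 4 of either vector at 48 h), that of Lin7a to 0.0737 (without Fezf2GFP 24 h replicate 1) and that of Dlg2 to 0.19 (over the threshold without CtrlGFP 24 h replicate 1 or 2 or any Fezf2GFP 24 h array).

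Markers of the cell types in the sorted cells moved beside the members. In bulk samples such as these, fewer cells of a type and less RNA per cell cannot be told apart. The mean log2 level of 11 neuronal markers ran from 12.33 to 12.59 with Fezf2GFP and from 11.91 to 12.50 with CtrlGFP at 48 h, and from 11.37 to 11.71 with Fezf2GFP and from 10.97 to 11.13 with CtrlGFP at 24 h. Of these markers 0 passed between the vectors at either time (medians 0.15 at 48 h and 0.38 at 24 h), while over time 5 rose with Fezf2GFP and 6 with CtrlGFP. Radial glial markers (9 genes) ran from 10.14 to 11.06 with Fezf2GFP and from 10.18 to 10.82 with CtrlGFP at 48 h, and from 11.13 to 11.41 with Fezf2GFP and from 11.14 to 11.42 with CtrlGFP at 24 h. Between the vectors at 48 h, Nes was higher (log2 fold change 1.30, SE 0.21, adjusted p = 0.00472) and Hopx lower (-2.28, SE 0.57, adjusted p = 0.0482), and 0 of the 9 passed at 24 h. Over time Nes (-1.21, SE 0.23, adjusted p = 0.00367) and Slc1a3 (-0.93, SE 0.26, adjusted p = 0.0344) fell with CtrlGFP, and 0 of the 9 passed with Fezf2GFP. Of 5 markers of intermediate progenitors, 4 fell over time with Fezf2GFP and 5 with CtrlGFP, and Gadd45g was lower with Fezf2GFP at 48 h (-1.57, SE 0.25, adjusted p = 0.00441). The part of these markers in the rise of the members over time was not tested.

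Markers of GABAergic cells (7 genes) had mean levels from 5.46 to 6.49 with Fezf2GFP and from 4.29 to 6.48 with CtrlGFP at 48 h, and from 3.95 to 6.84 with Fezf2GFP and from 3.96 to 4.07 with CtrlGFP at 24 h, with 0 passed between the vectors and median differences of 0.71 and 1.25. Of 6 Cajal-Retzius markers 2 were tested, Calb2 and Reln. As a description, Calb2 was at least 10.8-fold higher with Fezf2GFP than with CtrlGFP at 48 h. All its CtrlGFP 48 h and Fezf2GFP 24 h arrays were at or below the dim level. Only Fezf2GFP 48 h or CtrlGFP 24 h arrays can thus have carried it past the filter, and no p is given for it. Reln had a log2 fold change of 2.48 (adjusted p = 0.0508), while Trp73, which defines those cells, was below 4 on all 14 arrays. The mean level of the 6 ran from 4.38 to 5.07 with Fezf2GFP and from 3.23 to 3.88 with CtrlGFP at 48 h, and from 3.75 to 4.15 with Fezf2GFP and from 3.33 to 3.84 with CtrlGFP at 24 h. Of 4 astrocyte markers 2 were tested, and Aldh1l1 was higher with Fezf2GFP at 48 h (log2 fold change 1.41, SE 0.23, adjusted p = 0.00507). Of 5 markers of the oligodendrocyte lineage 2 were tested, Olig1 and Olig2, and 0 passed between the vectors. Over time, Olig1 (at least 18.3-fold, adjusted p = 0.00123) and Olig2 (log2 fold change 1.93, SE 0.43, adjusted p = 0.00911) rose with CtrlGFP. All CtrlGFP 24 h arrays of Olig1 were at or below the dim level. With Fezf2GFP, Aldh1l1 rose over time (1.38, SE 0.25, adjusted p = 0.00351), and the level of Calb2 was at least 10.8-fold higher at 48 h than at 24 h. The part of these markers in the differences of the members between the vectors and over time was not tested. Of the markers of other cell types, 5 of 6 for microglia, 5 of 6 for endothelium and 4 of 4 for meninges lay below 4 on all 14 arrays, and erythroid markers reached a mean of 6.24 on a CtrlGFP 24 h array.

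The tested members had a median genomic span of 78.7 kb and a range of 3.88 to 2241 kb, against a median of 25.3 kb over all genes tested, and 10 of the 25 were shorter than that median. Across all genes tested, the log2 fold change between the vectors rose with span, with a Spearman rho across genes of 0.281 at 48 h and 0.269 at 24 h, and across the 25 members rho was 0.365 and 0.345. Genes are not independent replicates, and these values share the same arrays. The value that the trend gives at the members' own spans had a median of 0.18 at 48 h and 0.17 at 24 h, against the members' medians of 0.72 and 0.31. With the trend removed, 5 members passed at 48 h, where 2.25% of all genes fitted passed, 179 higher and 52 lower. Cntnap5a, whose call was fixed by the filter, is among the 5. Cntnap2, the longest, was 0.84 and did not pass (adjusted p = 0.0744), nor did Cntn3 (adjusted p = 0.0703). The change of Cntnap2 over time with Fezf2GFP, without the trend, was 0.40 (adjusted p = 0.356). The trend was fitted to all tested genes with a known span, members included, and the standard errors were kept from the main fit. The part of span in the differences of the members was not tested.

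**Figure D5:**
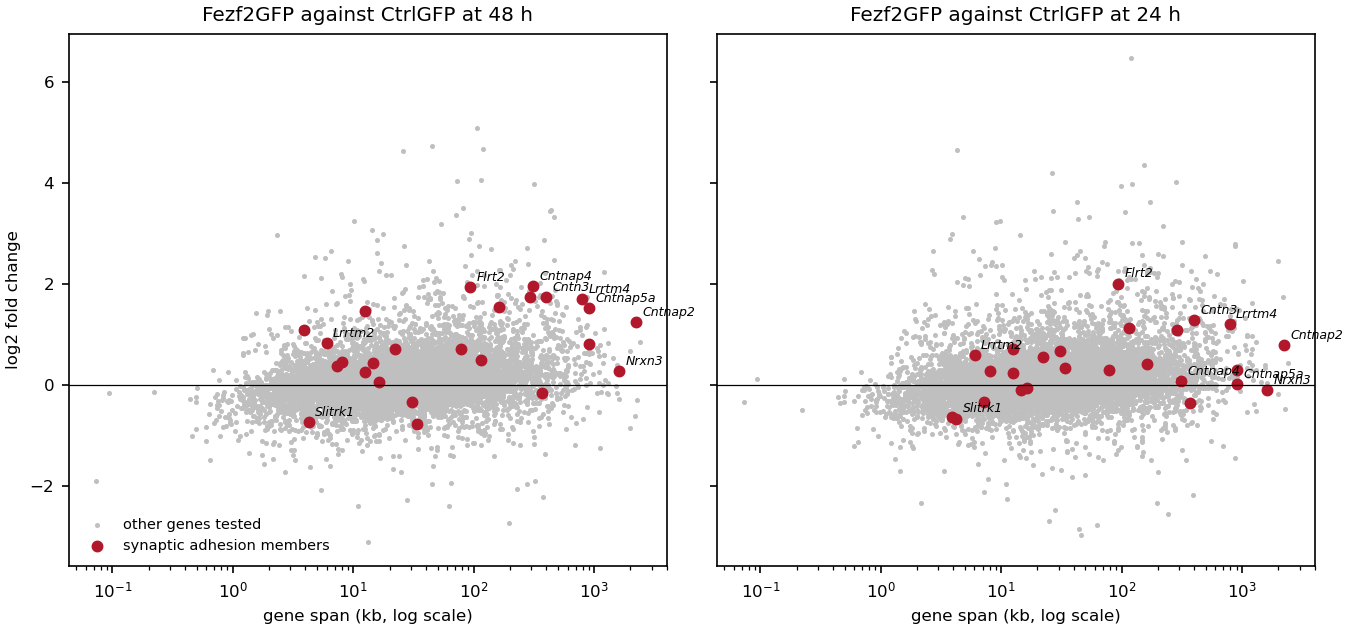
Log2 fold change of Fezf2GFP over CtrlGFP (vertical axis) against genomic span in kb (horizontal log axis) at 48 h (left) and 24 h (right), with members as large red points, some of them named, over the other genes tested as small grey points. Members span 3.88 to 2241 kb, and at 48 h 21 of the 25 lie above 0.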

How the data were processed

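Expression was measured on 14 Affymetrix arrays of amplified RNA in 4 groups taken from the labels (vector and time). The deposited values are log2 intensities made by the authors with GCRMA, per the submitters' processing notes (version: not given in the sources used here), and the scanner files were not used. The number of arrays limits the precision, and signal over background limits the dim genes.

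The table holds 45037 probe sets, of which 34945 are paired with 1 symbol in the platform annotation, 932 with several and 9160 with none. For each symbol the single-symbol probe set with the highest mean was kept, and a gene was tested if it lay above 4 on at least 3 of the 14 arrays, which left 10295 of 18193. All 14 arrays entered 1 limma fit (version 3.58.1, R 4.3.3; lmFit and eBayes) with 1 mean for each group and 10 residual degrees of freedom. The 5 comparisons set Fezf2GFP over CtrlGFP at 48 h, the same at 24 h, the first of these effects minus the second, and 48 h over 24 h within each vector. Benjamini-Hochberg adjustment ran over the genes tested, and "passed" means under 0.05. Errors are limma's standard errors (SE) beside a log2 fold change and standard deviations (SD) beside a level. Where all arrays of a group were at or below 4, the fold is a lower bound, written "at least", taken for each array of that group against 4 or its own value, whichever is higher. The fitting code was tested on simulated data.

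All values per array were given for each member that passed in at least 1 comparison, and the other members were named with their group means or as dim. Partner and scaffold genes were named if they passed between the vectors. Where a gene outside these rules is named, it is a marker. The members and lists were chosen with earlier results of these data known. Replicate numbers were not used as pairs in the main fit. Deviations of same-numbered arrays from their group means correlated at -0.06 to 0.29 between vectors at 48 h and at -0.01 to 0.32 at 24 h. Arrays of different numbers were not set beside them, so these values cannot show whether the numbers pair the samples. Alternatives were no filter or a dim level of 6, quantile normalization, median centring, a mean over probe sets, fits of the compared groups only, a replicate block, array weights, a trended robust prior, removal of the trend with gene span (lowess, 0.3 of genes), and leaving out arrays. RefSeq tables of build GRCm38.p6 gave gene spans and promoters, with promoters for 23 of the 33 members. The array annotation names no build in the sources used here.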

Additional observations from a re-analysis of the deposited data

Results flagged for a closer look

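Of 50 groups of 4 arrays checked over the 25 tested members, 4 held an array far from the rest of its group, where chance alone gives about 1 in 20. CtrlGFP 48 h replicate 2 was the array in 3 of them. Nlgn2 measured 11.60 there, above 11.16 to 11.20 on the other CtrlGFP 48 h arrays. Slitrk2 measured 5.78 there, far below the next array at 8.11. Cntnap5a measured 3.20 there, with the other 3 at 2.92 to 2.97, all of them below the dim level. Slitrk4 measured 6.07 on Fezf2GFP 48 h replicate 4, with the others no higher than 5.39.

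For Lrfn3 every Fezf2GFP array lay above every CtrlGFP array at 48 h and below every one at 24 h, and neither difference passed. The difference between the effects was 0.72 (SE 0.19), and it did not pass the interaction test over all genes (adjusted p = 0.442, limma).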

How the results depend on the processing

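Neither Fezf2 nor any member, partner or scaffold gene named as passed changed direction under the alternatives run for it, 24 or 25 in number. The alternatives were not tabulated for the cell type markers, also those that passed, or for named genes that did not pass. Member counts between the vectors at 48 h stayed between 5 and 8 over the fits that left out 1 array. Fitting only the groups compared gave 4 members and 168 genes at 48 h, 63 genes at 24 h, and 797 genes over time with CtrlGFP. Array weights, whose estimation stopped before convergence, gave 550 genes at 48 h, 2030 genes and 10 members at 24 h, 240 genes and 5 members for the difference between the vector effects, 3133 genes over time with Fezf2GFP, and 3077 genes and 9 members over time with CtrlGFP. A dim level of 6 left 4 genes for the difference between the effects. Quantile normalization gave 7 members and median centring 8 over time with CtrlGFP. The cause of these changes was not tested. The replicate block gave 5 members and 232 genes at 48 h, 1 member and 81 genes at 24 h, and 0 genes for the difference between the effects, and with it Lrrtm2 (adjusted p = 0.072), Cntn3 (0.0724), Cadm3 (0.07) and Shank3 (0.0722) missed the threshold at 48 h, as did Fezf2 (0.075), Cntn6 (0.0833), Cadm3 (0.0531) and Dlg2 (0.0642) at 24 h.

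Leaving out 1 array in turn gave 188 to 375 genes and 5 to 8 members at 48 h, 50 to 165 genes and 1 member at 24 h, and 0 to 12 genes and 0 to 1 members (Cntnap5a) for the difference between the effects. Over time it gave 630 to 1437 genes and 6 to 13 members with Fezf2GFP, and 910 to 1446 genes and 4 to 7 members with CtrlGFP. The count of 6 came without Fezf2GFP 24 h replicate 3, and that of 7 without CtrlGFP 48 h replicate 2. The tested members' median at 24 h was 0.51 when Fezf2GFP 24 h replicate 3 was left out and 0.17 when CtrlGFP 24 h replicate 1 was, and over time with CtrlGFP it was 0.14 without CtrlGFP 48 h replicate 1. The median over the tested members ran from 0.43 to 0.90 at 48 h and from 0.11 to 0.51 at 24 h over the 25 alternatives, and over time from 0.43 to 0.92 with Fezf2GFP and from 0.14 to 0.42 with CtrlGFP. Median centring moved the median of all genes between the vectors to -0.06 at both times, against 0.06 as deposited, and the genes passed at 48 h to 181 higher and 61 lower, against 278 and 44 as deposited. Levels near 4 and the small groups limit what could be called.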
